A study of Mus musculus with 12 samples.

Results

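Iron handling by liver cells was described here through 10 genes chosen by symbol, of 53715 genes listed in the count table. They encode the iron hormone hepcidin (Hamp), the iron exporter ferroportin (Slc40a1), transferrin (Trf) and its receptors (Tfrc and Tfr2), the heavy and light chains of ferritin (Fth1 and Ftl1), and the plasma proteins haptoglobin (Hp), hemopexin (Hpx) and ceruloplasmin (Cp). All 10 symbols matched 1 Ensembl identifier each. RNA-seq was performed on 12 libraries of C57BL/6JOlaHsd mouse liver cells, with 4 libraries in each of 3 groups described as biological replicates. Hepatoblasts, the fetal progenitors of hepatocytes, were taken at E14.5 as the Dlk1+ fraction of pooled embryonic livers by magnetic separation and processed directly. Diff. hepatocytes came from the same kind of E14.5 Dlk1+ isolate after 4 days in culture on fibronectin, in a medium with serum, dexamethasone, Matrigel and a supplement of insulin, transferrin and selenium. Mature hepatocytes were obtained by collagenase perfusion of the livers of adult males of 8 to 12 weeks and processed directly. The culture time is that of the series description, and the methods of the study state a longer culture without tying it to these libraries. The medium thus supplied transferrin and a glucocorticoid. The sex of the embryos was not given.

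Hepatocytes take up iron bound to transferrin, store it in ferritin and release it through ferroportin, which hepcidin removes from the cell surface. Hepcidin transcription is driven by BMP and SMAD signalling, in which the products of Hfe, Hfe2 (hemojuvelin) and Tfr2 take part, and by STAT3 in inflammation. Haptoglobin binds hemoglobin, hemopexin binds heme, and ceruloplasmin is a copper ferroxidase. These 3 plasma proteins are made by the liver and rise in the acute-phase response. The fetal liver is also a site of red blood cell formation, and immature red cells use the transferrin receptor encoded by Tfrc heavily.

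Part of the control of these genes acts on the mRNA. Iron regulatory proteins bind iron-responsive elements, short hairpins with a bulged C and a 6-base loop. In a 5′ UTR such an element holds back translation when iron is low, and in the 3′ UTR of Tfrc it protects the mRNA from decay. A search of the transcripts for a paired 5-base stem, a bulged C and a loop opening with CAGTG found a match in 4 of the 10 genes (40.0%) and in 294 of 21901 coding genes (1.34%). The matches are shown because they separate Tfrc from Slc40a1, Fth1 and Ftl1. Tfrc had 4 matches in the last exon (exon 19), and the other genes had 1 match each in exon 1. A search for this fixed form can miss elements that depart from it, so the matches are not a full count of elements. Capitals mark the bulged C and the loop. The sequences were read from GENCODE M21 transcripts (GRCm38), 5′ to 3′ on the gene's strand.
Tfrc, 3′ UTR, chr16:32631220-32631246, plus strand: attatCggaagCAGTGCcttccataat
Tfrc, 3′ UTR, chr16:32631599-32631625, plus strand: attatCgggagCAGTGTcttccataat
Tfrc, 3′ UTR, chr16:32631664-32631690, plus strand: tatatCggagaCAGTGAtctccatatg
Tfrc, 3′ UTR, chr16:32631711-32631737, plus strand: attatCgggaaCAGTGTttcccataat
Slc40a1, 5′ UTR, chr1:45925466-45925492, minus strand: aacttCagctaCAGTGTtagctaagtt
Fth1, 5′ UTR, chr19:9982733-9982759, plus strand: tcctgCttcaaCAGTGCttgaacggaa
Ftl1, 5′ UTR, chr7:45459780-45459806, minus strand: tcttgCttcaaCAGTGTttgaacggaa

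RefSeq promoter windows on GRCm38.p6, 250 bases before to 50 after a gene's start in the table used, were present for 7 of the 10 genes. Each was searched on both strands for GGCGCC, the core of a BMP-response element, for TTCNNNGAA, a STAT motif, and for TTNNGCAA, the core bound by C/EBP factors. In the 32851 promoters of the table, GGCGCC occurred in 11.9%, TTCNNNGAA in 8.3% and TTNNGCAA in 10.8%. The window of Hamp held GGCGCC at -109 and the STAT motif at -97 relative to its start. That of its neighbour Hamp2, a second mouse hepcidin gene, held only the STAT motif, at -94. Both are printed from -150 to -31, with the matches in capitals, because the RNA of these neighbours differed between the groups.
Hamp, chr7:30944060-30944179, minus strand: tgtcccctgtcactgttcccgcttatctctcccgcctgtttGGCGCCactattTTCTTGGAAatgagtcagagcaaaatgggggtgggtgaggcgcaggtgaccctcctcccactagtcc
Hamp2, chr7:30924212-30924331, minus strand: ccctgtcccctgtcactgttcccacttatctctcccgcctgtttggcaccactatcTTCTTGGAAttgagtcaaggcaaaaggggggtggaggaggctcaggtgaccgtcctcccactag
TTNNGCAA was found in the windows of Cp at -70, Hpx at -200 and Fth1 at -129 and -58, and GGCGCC in that of Tfrc at -89. A letter match does not show that a factor binds there.

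Library totals lay between 19581551 and 25216977 counts, and levels are given as counts per 1000000 counts of a library (CPM) after TMM scaling, a correction for differences in RNA composition. The summed CPM of 8 hepatocyte markers was 38301 to 64637 in hepatoblasts, 87411 to 103055 in Diff. hepatocytes and 122529 to 171109 in mature hepatocytes. Hepatoblasts replicate 1 stood apart in blood cell RNA. Its sum over 12 erythroid markers was 2785 CPM, against 322 to 552 CPM in the other hepatoblast libraries, 6.06 to 23.8 CPM for Diff. hepatocytes and 5.03 to 7.47 CPM for mature hepatocytes. Its sum over 10 macrophage markers was 309 CPM, against 75.4 to 95.5 CPM in the other hepatoblast libraries.

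A gene was called higher or lower when its log2 fold change exceeded 1 in size and its adjusted p was below 0.01 in edgeR's quasi-likelihood test over 17779 genes, and all 10 genes passed the filter on low counts. Between Diff. hepatocytes and hepatoblasts, 7 of the 10 genes were higher in the cultured cells and none was lower, where 14.9% of all tested genes were called higher and 14.0% lower. In mature hepatocytes 7 were higher and 1 was lower than in hepatoblasts, beside 20.1% and 24.7% of all genes. Between Diff. and mature hepatocytes 1 was higher and 3 were lower in the cultured cells, beside 20.2% and 15.6% of all genes. As a median over the 10 genes, the log2 fold change was 1.55, 2.25 and 0.14 in these comparisons, while all tested genes had a median of -0.01, -0.15 and 0.09. In exact two-sided permutation tests of single genes the smallest p of this design, 0.0286, was reached in all comparisons except Slc40a1 (0.743) and Ftl1 (0.0571) between Diff. hepatocytes and hepatoblasts and Fth1 (p = 1) between Diff. and mature hepatocytes. The share of all tested genes that reach it is not given here, so this does not set the 10 genes apart. Scaling changed the count of calls. With library totals in place of TMM, which moved the median of all genes by -0.32, -0.85 and 0.53 on the log2 scale, the counts higher and lower became 6 and 1, 5 and 1, and 4 and 1. The share of all calls that were higher then went from 51.5% to 35.4%, from 44.9% to 20.2% and from 56.4% to 75.6%. Without hepatoblasts replicate 1 the counts were 6 and 0 in Diff. hepatocytes against hepatoblasts and 7 and 1 in mature hepatocytes against hepatoblasts, with Trf the gene lost.

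**Figure D1:**
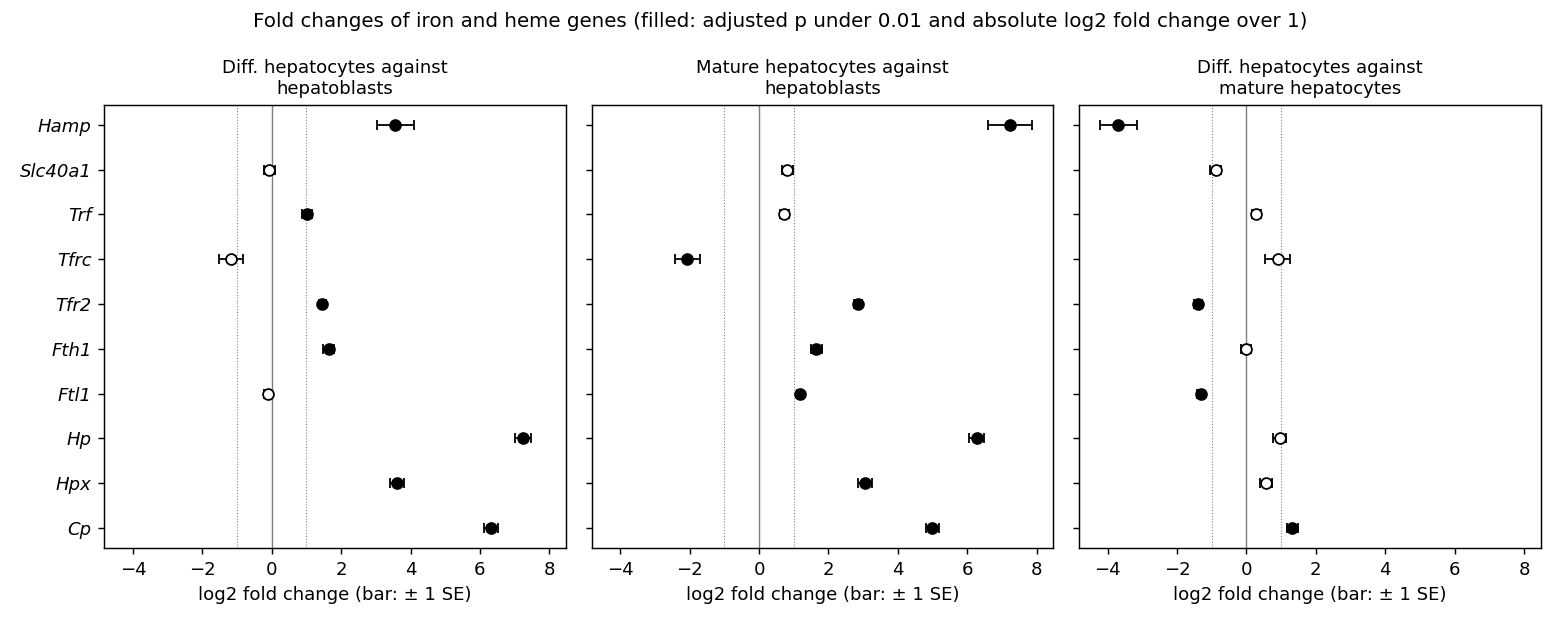
The log2 fold change of each gene with its standard error is plotted for 3 comparisons, with filled points for genes called higher or lower and dotted lines at 1 and -1. Hp, Cp and Hpx lie far to the right in both comparisons with hepatoblasts, and Tfrc is the gene called lower in mature hepatocytes.

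Hamp (ENSMUSG00000050440, chromosome 7 from 30942368 to 30944032, minus strand) had 3 separate levels. In replicate order it measured 9.77, 7.55, 9.78 and 11 CPM in hepatoblasts, with 219, 36.3, 146 and 47.1 CPM for Diff. hepatocytes and 1333, 1047, 950.2 and 2448 CPM for mature hepatocytes. No library of one group reached the range of another. The mean was 11.8-fold higher in Diff. hepatocytes than in hepatoblasts (log2 fold change 3.56, SE 0.53, edgeR adjusted p = 7.33e-05) and 12.9-fold lower than in mature hepatocytes (log2 fold change -3.69, SE 0.53, edgeR adjusted p = 3.8e-05). Mature hepatocytes exceeded hepatoblasts by a log2 fold change of 7.24 (SE 0.63). Relative to its mean, Hamp had the widest spread of the 10 genes among the cultured libraries, which fell into a pair above 100 CPM and a pair below 50 CPM.

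Hamp2 shared 3.87% of the 75-base stretches of Hamp, so the counts of these neighbours were largely separable. It was near 0 outside the adult cells, with at most 1 count per library in hepatoblasts and at most 3 in Diff. hepatocytes. In mature hepatocytes its level was 12.8 ± 4.77 CPM (SD, n = 4), and it was called higher there than in hepatoblasts (edgeR adjusted p = 4.34e-09) and than in Diff. hepatocytes (edgeR adjusted p = 1.98e-08). Diff. hepatocytes thus held RNA of Hamp but at most 3 counts per library of Hamp2.

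The library order of Hamp was compared with that of Id1, Atoh8, Smad7 and Smad6, which are known BMP target genes and were picked for this after their values were seen. Id1 measured 21, 10.6, 17.9 and 14.3 CPM in replicates 1 to 4 of Diff. hepatocytes. Atoh8 measured 12.0, 4.69, 10.3 and 7.49 CPM and Smad7 measured 19.2, 11.2, 16.8 and 11.1 CPM in the same libraries. Smad6, another BMP target, measured 14.0, 10.3, 11.2 and 9.81 CPM. As for Hamp, replicates 1 and 3 were the highest for each of them. In mature hepatocytes Hamp, Id1, Atoh8 and Smad7 were highest in replicates 1 and 4, with 23.9, 4.62, 3.44 and 7.76 CPM for Id1 and 59.7, 30.5, 31.8 and 71.1 CPM for Smad7. Smad6 did not share this pair, at 8.43, 5.71, 8.58 and 13.7 CPM, and none of these target genes had the full order of Hamp there. Of 10202 other genes with a mean of at least 5 CPM, 342 (3.35%) had the same highest pair as Hamp in both groups. The full order of Hamp was found in 9.05% among the cultured libraries and in 5.50% among the adult ones. As the target genes were picked with their values known, these shares cannot test a link between them and Hamp. Lcn2, an acute-phase gene, also had the full order of Hamp among the cultured libraries, at 1387, 416, 903 and 607 CPM. It did not share the adult pair, at 3.91, 19.0, 5.49 and 3.04 CPM. The sum over 8 mesenchymal markers was also highest in replicates 1 and 3 of Diff. hepatocytes, at 2369 and 1668 CPM against 1217 and 1047 CPM, and its part in these orders was not tested. Between groups, only Atoh8 of these targets was called higher than in hepatoblasts in both other groups, as Hamp was (log2 fold changes 3.66 and 5.86). Id1, Smad6 and Smad7 had log2 fold changes of -0.10, -0.31 and -0.48 in Diff. hepatocytes against hepatoblasts, none called. In mature hepatocytes against hepatoblasts they had -0.80, -0.63 and 1.24, with only the last called.

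**Figure D2:**
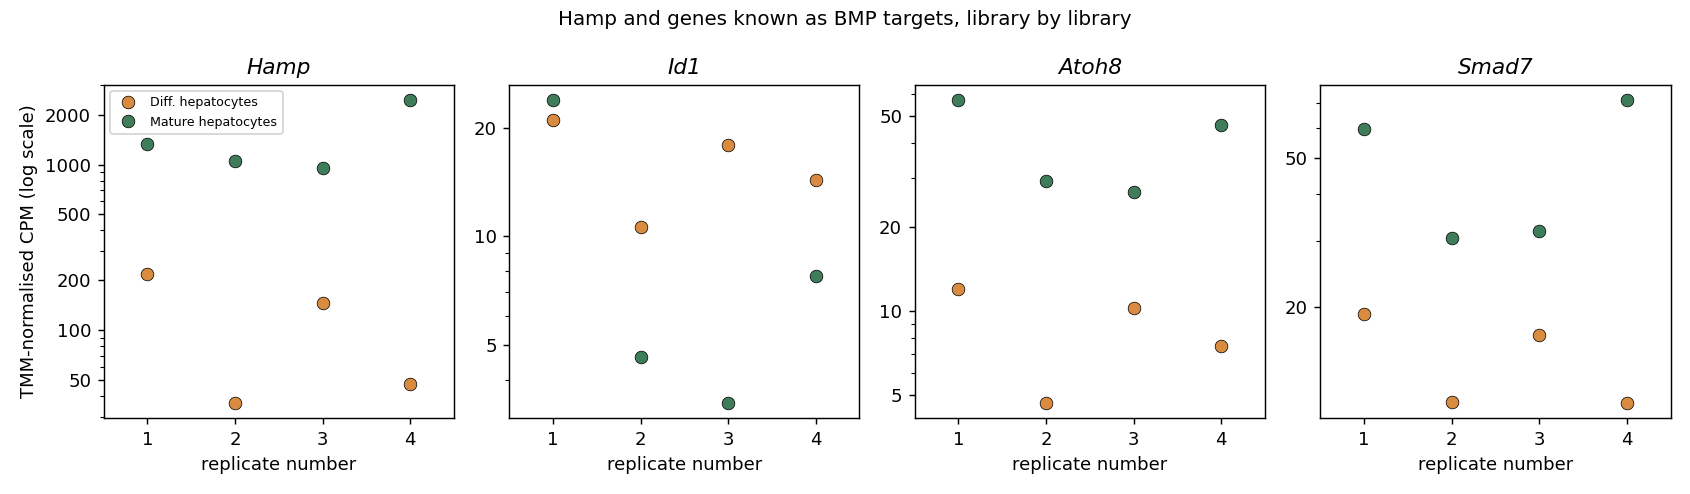
CPM on a log axis is plotted against replicate number for Hamp, Id1, Atoh8 and Smad7, with Diff. hepatocytes in orange and mature hepatocytes in green. Replicates 1 and 3 are the highest cultured libraries and replicates 1 and 4 the highest adult libraries in each panel. Smad6, which did not share the adult pair, and the hepatoblast libraries are not drawn.

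Slc40a1 (ENSMUSG00000025993, chromosome 1 from 45908068 to 45926523, minus strand) changed little by comparison. Its values were 112, 67.0, 87.8 and 96.7 CPM in hepatoblasts, with 89.8, 86.9, 87.0 and 82.0 CPM for Diff. hepatocytes and 131, 129.5, 175 and 203 CPM for mature hepatocytes. Every adult library lay above every other library, while the cultured libraries lay inside the range of the hepatoblasts. Mature hepatocytes exceeded hepatoblasts by 1.76-fold (log2 fold change 0.81, SE 0.16, edgeR adjusted p = 0.000553), below the fold threshold for a call, and with library totals this difference was -0.05. Diff. hepatocytes differed from hepatoblasts by a log2 fold change of -0.07 (SE 0.16, edgeR adjusted p = 0.724). Macrophages also export iron through ferroportin. The macrophage marker sum was 75.4 to 309 CPM in hepatoblasts, with 31.0 to 125 CPM for Diff. hepatocytes and 121 to 239 CPM for mature hepatocytes, with none of the 10 markers at 0 in any group, and the part of such cells in the Slc40a1 values was not tested.

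Trf, encoding the plasma carrier of iron (ENSMUSG00000032554, chromosome 9 from 103204001 to 103230444, minus strand), was abundant in all groups. It measured 470.1, 578, 685 and 795 CPM in hepatoblasts, with 1255, 1274, 1338 and 1240.4 CPM for Diff. hepatocytes and 1085, 1181, 938 and 985 CPM for mature hepatocytes. The hepatoblast libraries were all lower than the rest. Trf rose 2.02-fold in culture (log2 fold change 1.01, SE 0.14, edgeR adjusted p = 4.68e-05), a value at the edge of the fold threshold that fell to 0.91 without hepatoblasts replicate 1, to 0.97 without hepatoblasts replicate 2 and to 0.99 without Diff. hepatocytes replicate 3, each no longer called. The log2 fold change of mature hepatocytes against hepatoblasts was 0.73 (SE 0.14), and -0.11 with library totals. An overlapping gene on the same strand, Gm20425, shares 65.5% of the 75-base stretches of Trf and had 0 or 1 counts per library, so reads from the shared part may be missing from the Trf counts in every group.

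The receptors moved in opposite directions between fetal and adult cells. Tfrc, the high-affinity receptor that brings transferrin into dividing and iron-hungry cells (ENSMUSG00000022797, chromosome 16 from 32608920 to 32632794, plus strand), measured 395, 142, 104 and 128 CPM in hepatoblasts. It measured 78.1, 99.6, 77.2 and 86.8 CPM for Diff. hepatocytes and 35.3, 42.8, 60.1 and 44.5 CPM for mature hepatocytes. The groups did not overlap, and hepatoblasts replicate 1, the library rich in erythroid RNA, was the highest. Tfrc fell 4.21-fold in mature hepatocytes (log2 fold change -2.07, SE 0.36, edgeR adjusted p = 0.000148). In Diff. hepatocytes the log2 fold change was -1.17 (SE 0.35, edgeR adjusted p = 0.0103), just short of a call. Diff. hepatocytes exceeded mature hepatocytes by 0.90 (edgeR adjusted p = 0.0354), not called, and by a called 1.43 with library totals (edgeR adjusted p = 0.00503).

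The size of the Tfrc difference depended on hepatoblasts replicate 1. Without that library the log2 fold change was -1.45 in mature hepatocytes, still called, and -0.54 in Diff. hepatocytes. Without hepatoblasts replicate 3 or 4, the latter difference was called, at -1.39 and -1.34. All 12 erythroid markers were lower in both groups than in hepatoblasts, with Hbb-bh1 at 0 in both. All 10 proliferation markers were lower as well, with sums of 1554 to 2696 CPM in hepatoblasts, 112 to 201 CPM for Diff. hepatocytes and 51.5 to 65.8 CPM for mature hepatocytes. The part of these cells and of cell division in the Tfrc values was not tested. In bulk libraries fewer cells of a type and less RNA per cell cannot be told apart.

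Tfr2 (ENSMUSG00000029716, chromosome 5 from 137569840 to 137587481, plus strand) encodes a receptor of hepatocytes that senses transferrin and acts in hepcidin control. Its RNA was lowest in hepatoblasts, higher in Diff. hepatocytes and highest in mature hepatocytes, and varied little within groups. It measured 88.3, 84.5, 105 and 117 CPM in hepatoblasts, with 253, 278, 272 and 281 CPM for Diff. hepatocytes and 704, 716, 670.2 and 749.8 CPM for mature hepatocytes. The 3 ranges were well apart. Tfr2 was 2.75-fold higher in Diff. hepatocytes than in hepatoblasts (log2 fold change 1.46, SE 0.11, edgeR adjusted p = 1.06e-07) and 2.62-fold lower than in mature hepatocytes (log2 fold change -1.39, SE 0.11, edgeR adjusted p = 1.07e-07), a difference of -0.86 with library totals. Mature hepatocytes exceeded hepatoblasts by a log2 fold change of 2.85 (SE 0.11).

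The ratio of Tfrc to Tfr2 counts within a library does not depend on the scaling between libraries. It was 4.48, 1.68, 0.987 and 1.10 in hepatoblasts, 0.308, 0.358, 0.284 and 0.309 in Diff. hepatocytes and 0.0502, 0.0598, 0.0896 and 0.0594 in mature hepatocytes. The mean log2 ratio fell by 2.43 from hepatoblasts to Diff. hepatocytes and fell by 4.74 from hepatoblasts to mature hepatocytes, and the groups did not overlap. Each of the 3 differences had p = 0.0286 in a two-sided exact permutation test, the smallest that 4 against 4 libraries allow, and 0.0343 after Benjamini-Hochberg adjustment over 6 ratio tests. The pairs of genes for these ratios were chosen after their values were seen.

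The ferritin chains, which assemble into the same iron-storing shell, did not move together. Fth1, the chain with ferroxidase activity (ENSMUSG00000024661, chromosome 19 from 9980598 to 9985098, plus strand), measured 724, 499, 495 and 474 CPM in hepatoblasts. It measured 1667, 1601, 1835 and 1737 CPM for Diff. hepatocytes and 1794, 1545, 1518 and 2040.0 CPM for mature hepatocytes. The cultured and adult ranges overlapped and both lay above all hepatoblasts. Fth1 rose 3.12-fold in Diff. hepatocytes (log2 fold change 1.64, SE 0.15, edgeR adjusted p = 8.35e-07) and 3.15-fold in mature hepatocytes (log2 fold change 1.65, SE 0.15, edgeR adjusted p = 3.44e-07), the latter down to 0.78 and no longer called with library totals. The difference between Diff. and mature hepatocytes was -0.01 on the log2 scale (SE 0.15), and 0.52 with library totals.

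Ftl1, the chain that supports core formation (ENSMUSG00000050708, chromosome 7 from 45457944 to 45459884, minus strand), was called higher in mature hepatocytes than in both other groups under TMM scaling. It measured 252, 277, 255 and 263 CPM in hepatoblasts, with 236, 253, 241 and 231 CPM for Diff. hepatocytes and 561, 569.5, 554 and 710.3 CPM for mature hepatocytes. The cultured range overlapped that of the hepatoblasts, with a log2 fold change of -0.12 (SE 0.09, edgeR adjusted p = 0.276). Mature hepatocytes exceeded hepatoblasts by 2.29-fold (log2 fold change 1.19, SE 0.09, edgeR adjusted p = 8.81e-08), and Diff. hepatocytes were 2.49-fold lower than mature hepatocytes (log2 fold change -1.32, SE 0.10, edgeR adjusted p = 6.31e-08). With library totals these differences were 0.34 and -0.78, and neither was called, and the first was not called by edgeR's glmTreat, a test against the fold threshold (adjusted p = 0.0221). Annotated genes elsewhere, chiefly the copy Ftl1-ps1 (61.0%), share 62.2% of the 75-base stretches of Ftl1, against 2.04% for Fth1, and Gm10252, with 2 to 14 counts per library, lies across Ftl1 on the other strand, so much of the Ftl1 RNA may not be in its counts.

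The count ratio of Fth1 to Ftl1 was 2.88, 1.8, 1.94 and 1.8 in hepatoblasts, 7.07, 6.33, 7.60 and 7.50 in Diff. hepatocytes and 3.20, 2.71, 2.74 and 2.87 in mature hepatocytes. Every cultured library had a higher ratio than every other library. The mean log2 ratio of Diff. hepatocytes exceeded that of hepatoblasts by 1.78 and that of mature hepatocytes by 1.31, each with p = 0.0286 in the exact permutation test (adjusted 0.0343). Mature hepatocytes differed from hepatoblasts by 0.48 (exact permutation p = 0.114). Reads lost to Ftl1 copies would raise this ratio in every group. Both genes carry 1 iron-responsive element in the 5′ UTR, and RNA levels do not show how much ferritin was translated.

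**Figure D3:**
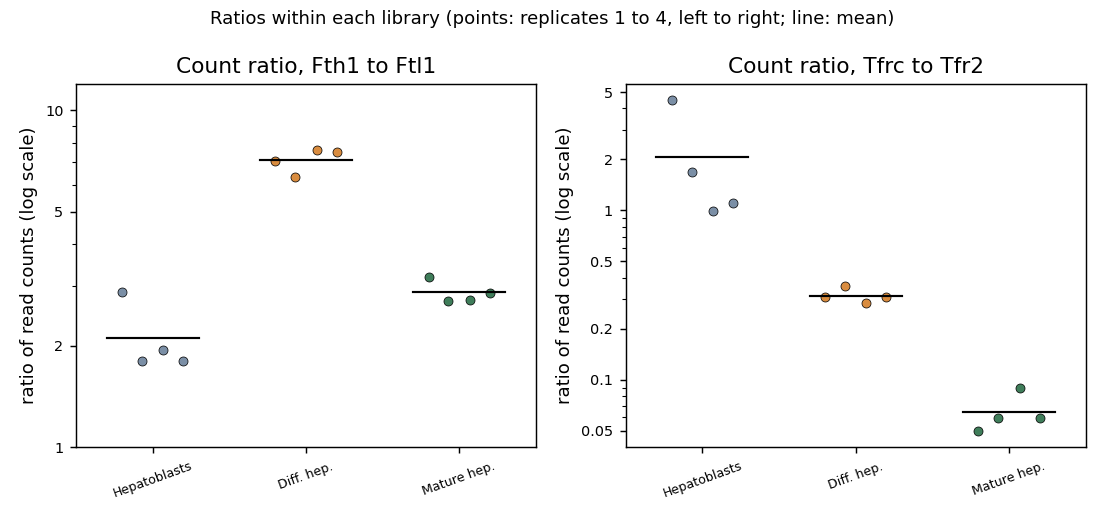
Count ratios of Fth1 to Ftl1 (left) and of Tfrc to Tfr2 (right) are plotted on log axes, with a point per library and a line at the group mean. The 4 Diff. hepatocytes lie highest for Fth1 to Ftl1, and the Tfrc to Tfr2 ratio steps down from hepatoblasts over Diff. hepatocytes to mature hepatocytes.

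The plasma proteins rose by large factors in both hepatocyte groups. Hp (ENSMUSG00000031722, chromosome 8 from 109575128 to 109579172, minus strand) measured 56.7, 43.7, 61.2 and 61.2 CPM in hepatoblasts. It measured 8604, 8545, 8780.1 and 7577 CPM for Diff. hepatocytes and 3766, 5954, 4145 and 3363 CPM for mature hepatocytes. Every cultured library was above every adult library. Hp rose 150.4-fold in Diff. hepatocytes (log2 fold change 7.23, SE 0.23, edgeR adjusted p = 8.42e-11) and 77.4-fold in mature hepatocytes (log2 fold change 6.27, SE 0.22). Between the latter groups the log2 fold change was 0.96 (SE 0.18, edgeR adjusted p = 0.00032), just under the fold threshold, and it was called at 1.15 without mature hepatocytes replicate 2 and at 1.01 without Diff. hepatocytes replicate 4. It was also called at 1.47 with library totals (edgeR adjusted p = 1.35e-05) and at 1.07 with at least 10 counts required in every library.

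Hpx (ENSMUSG00000030895, chromosome 7 from 105591613 to 105600137, minus strand) was already expressed in hepatoblasts, at 509, 689.8, 789.5 and 809.9 CPM. It reached 8186, 8083, 9555 and 8314 CPM for Diff. hepatocytes and 5069.7, 7723, 5762 and 4624 CPM for mature hepatocytes. Again no adult library reached the cultured ones. Hpx rose by a log2 fold change of 3.61 (SE 0.20) in culture and of 3.05 (SE 0.20) in mature hepatocytes. The difference between these was 0.56 (SE 0.18, edgeR adjusted p = 0.0157) and was not called, although library totals gave a called value of 1.07.

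Cp (ENSMUSG00000003617, chromosome 3 from 19957054 to 20009145, plus strand) was the gene called higher in Diff. than in mature hepatocytes. It measured 36.1, 36.3, 46.2 and 61.6 CPM in hepatoblasts, with 3722, 3882, 3295 and 3396 CPM for Diff. hepatocytes and 1515, 1239, 1584 and 1379 CPM for mature hepatocytes. The cultured level was 79.3-fold that of hepatoblasts (log2 fold change 6.31, SE 0.20, edgeR adjusted p = 9.22e-11) and 2.5-fold that of mature hepatocytes (log2 fold change 1.32, SE 0.16, edgeR adjusted p = 1.08e-05), the latter not called by glmTreat, edgeR's test against the fold threshold (adjusted p = 0.0327). Mature hepatocytes exceeded hepatoblasts by a log2 fold change of 4.99 (SE 0.19). Hps3 overlaps Cp on the other strand with 125 to 434 counts per library, and whether the counting used strand was not stated.

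**Figure D4:**
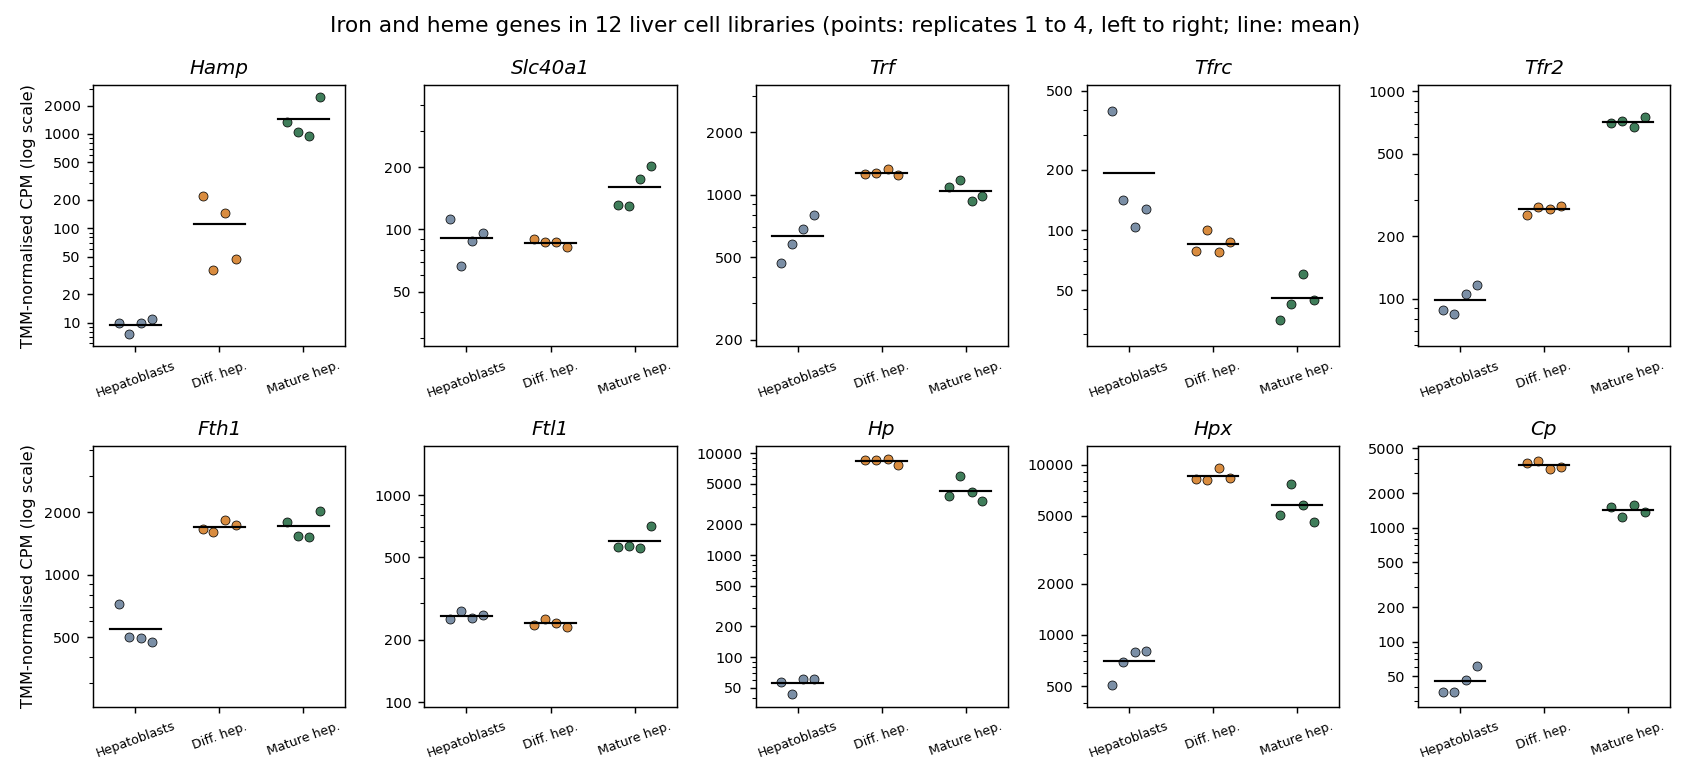
TMM-normalised CPM of the 10 genes is plotted on log axes, with a point for each of the 4 libraries of a group and a line at the mean. Hamp, Trf, Tfrc, Tfr2, Hp, Hpx and Cp do not overlap between the 3 groups. The share of all tested genes without overlap is not given here, so this does not set them apart. Fth1 overlaps between both hepatocyte groups. Ftl1 and Slc40a1 overlap between hepatoblasts and Diff. hepatocytes. Both are highest in mature hepatocytes (for Slc40a1 not against hepatoblasts with library totals, at -0.05). Hp, Hpx and Cp are highest in Diff. hepatocytes.

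Levels of different genes were ranked per kilobase of exon. Hpx led in hepatoblasts at 467 ± 91.6 CPM per kb (SD, n = 4), followed by Ftl1, Trf and Fth1 at 195, 190.4 and 158, whose ranges overlapped from neighbour to neighbour. Cp was last at 4.71 CPM per kb. In Diff. hepatocytes Hpx and Hp led with overlapping ranges, at 5693 ± 458 and 5216 ± 338 CPM per kb, and Fth1 followed at 493. In mature hepatocytes Hpx, Hamp and Hp formed an overlapping group at 3866, 3523 and 2682 CPM per kb, and Tfrc was last at 7.38. Hamp thus moved from rank 7 in hepatoblasts over rank 6 in Diff. hepatocytes to rank 2 in mature hepatocytes, and Cp from rank 10 over rank 5 to rank 8. With the longest coding transcript as the length in place of all exons, Hamp ranked 9, 6 and 2 and Cp 10, 4 and 7. Fth1 then moved from rank 4 to rank 2 in hepatoblasts, at 367 CPM per kb ahead of Ftl1 (270.4) and Trf (246), and in Diff. hepatocytes Hp (6228) passed Hpx (5693). Reads may be lost unequally between these genes. Of the stretches compared above, genes elsewhere share 62.2% for Ftl1, and Gm20425 shares 65.5% for Trf. For Fth1 the share is 2.04%, and for Hpx and Hp there is none. The effect of such loss on the levels and ranks of Ftl1 and Trf was not tested.

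For Hamp, Tfrc and Slc40a1 the genes of most like pattern were found among 8696 genes by the root mean square difference of centred log2 CPM over the 12 libraries. Those nearest to Hamp were Cldn2 (0.51), Slc17a4 (0.68) and Ildr2 (0.72). Among those near Tfrc were Cyth3 (0.29) and Lrwd1 (0.33). Nearest to Slc40a1, whose changes were small, were Zbtb7a (0.17), Cd82 (0.18) and Wdfy2 (0.18).

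Further genes of the pathway were read from the same fit. Of 71 listed iron and heme genes, 70 were tested. In Diff. hepatocytes 14 were higher and 13 lower than in hepatoblasts, beside 14.9% and 14.0% of all genes. In mature hepatocytes 28 were higher and 12 lower than in hepatoblasts, beside 20.1% and 24.7%. Between Diff. and mature hepatocytes 10 were higher and 25 lower in the cultured cells, beside 20.2% and 15.6%. With library totals these counts became 11 and 19, 14 and 24, and 12 and 13, so the balance between higher and lower depended on the scaling.

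Among 22 genes of hepcidin control, 6 rose and 1 fell in Diff. hepatocytes, beside 14.9% and 14.0% of all genes. In mature hepatocytes 11 rose and 1 fell, beside 20.1% and 24.7%. Between Diff. and mature hepatocytes 1 was higher and 7 were lower in culture, beside 20.2% and 15.6%. With library totals these counts were 5 and 1, 9 and 7, and 1 and 5. Fgl1, which encodes a protein secreted by hepatocytes, rose in culture from 1.26 ± 0.142 to 239.7 ± 50.8 CPM (log2 fold change 7.57, edgeR adjusted p = 1.59e-08). Mature hepatocytes held 341 ± 203 CPM of Fgl1, and Diff. hepatocytes did not differ from them by a call (log2 fold change -0.51, edgeR adjusted p = 0.177). The BMP receptor gene Acvr1 was lower than in hepatoblasts in culture (log2 fold change -1.36) and, not called, in mature hepatocytes (-0.86). Hemojuvelin, encoded by Hfe2, was at 29.7, 100.5 and 89.8 CPM in hepatoblasts, Diff. and mature hepatocytes. Tmprss6, the protease that cleaves hemojuvelin, was at 129, 191 and 909.8 CPM, and Hfe at 11.7, 21.5 and 58.5 CPM. Both were called lower in Diff. than in mature hepatocytes, with log2 fold changes of -2.25 and -1.45, as were the BMP targets Atoh8 (-2.20) and Smad7 (-1.73). The targets Id1 (0.69) and Smad6 (0.32) were not called in that comparison.

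Of 17 iron uptake and movement genes, 4 were higher and 4 lower in Diff. hepatocytes against hepatoblasts, beside 14.9% and 14.0% of all genes. In mature hepatocytes 4 were higher and 7 lower than in hepatoblasts, beside 20.1% and 24.7%. The cultured cells had 7 higher and 2 lower than mature hepatocytes, beside 20.2% and 15.6%. With library totals these counts were 4 and 6, 1 and 9, and 7 and 2. Lcn2, an acute-phase protein that binds iron-carrying siderophores, measured 17.8 ± 4.82 CPM in hepatoblasts, 829 ± 423 CPM for Diff. hepatocytes and 7.86 ± 7.49 CPM for mature hepatocytes, and it rose in culture by 5.54 on the log2 scale (edgeR adjusted p = 2.52e-06). The metalloreductase gene Steap4 rose to 180.0 and 153 CPM in Diff. and mature hepatocytes from 11 CPM. Cybrd1, a ferric reductase of the gut, fell in culture from 17.9 to 2.72 CPM and had at most 1 count per library in mature hepatocytes. Ltf, encoding lactoferrin, had 0 to 2 counts per library in mature hepatocytes and 0.933 to 23.1 CPM in Diff. hepatocytes. Scara5, a receptor for ferritin, was lower in Diff. than in mature hepatocytes (log2 fold change -3.31, edgeR adjusted p = 0.000992), where it spread from 1.86 to 38.1 CPM. The importer gene Slc39a14, added to the named genes after its value was seen, measured 115, 386 and 344 CPM in hepatoblasts, Diff. and mature hepatocytes.

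The genes of iron sensing, ferritin loading and turnover include the iron regulatory proteins and the iron-sulfur cluster scaffold. In Diff. hepatocytes 1 of 10 tested was higher than in hepatoblasts and none was lower, beside 14.9% and 14.0% of all genes. In mature hepatocytes 2 were higher and none was lower, beside 20.1% and 24.7%. Diff. hepatocytes had none higher and 2 lower than mature hepatocytes, beside 20.2% and 15.6%. With library totals the counts higher and lower were 0 and 1, 1 and 3, and, turned in direction, 2 and 0. Ncoa4, which delivers ferritin for breakdown, rose from 27.3 ± 2.17 to 63.2 ± 2.5 CPM in culture (log2 fold change 1.21, edgeR adjusted p = 4.11e-08). In mature hepatocytes Ncoa4 measured 44.2 ± 2.83 CPM. Iscu, a scaffold for iron-sulfur clusters, measured 19.3, 28 and 72.6 CPM in the 3 groups and was lower in Diff. than in mature hepatocytes by a log2 fold change of -1.38. The iron regulatory protein gene Ireb2 measured 66.1, 75.4 and 118 CPM and was not called in any comparison.

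All 9 genes of heme synthesis were lower in Diff. than in mature hepatocytes, where 15.6% of all tested genes were called lower. Their median log2 fold change was -1.54. With library totals all 9 were still lower in direction and 4 were called. Against hepatoblasts, 1 was higher and 5 were lower in Diff. hepatocytes, beside 14.9% and 14.0% of all genes. In mature hepatocytes 4 were higher and 1 was lower than in hepatoblasts, beside 20.1% and 24.7%. These counts were 1 and 4, and 5 and 0, without hepatoblasts replicate 1, and 1 and 7, and 1 and 2, with library totals. Alas1, the first enzyme of the pathway in liver, rose in culture from 30.1 ± 3.47 to 215 ± 25.1 CPM (log2 fold change 2.84, edgeR adjusted p = 4.99e-05). In mature hepatocytes it measured 262, 1785, 846 and 1079.7 CPM, with replicate 1 close to the cultured range. Alad, the next enzyme, was at 68.8, 16.4 and 179 CPM in the 3 groups, and Fech, the last, at 95.0, 75.2 and 219 CPM.

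Alas2, the form of the first enzyme known from red cell precursors, measured 85.3, 19.7, 16.6 and 16 CPM in hepatoblasts and 2.38, 0.990, 0.977 and 1.33 CPM in Diff. hepatocytes. In mature hepatocytes it measured 177, 153, 144 and 130.4 CPM, where the sum over 12 erythroid markers was 5.03 to 7.47 CPM. Under TMM scaling these Alas2 values lay above every hepatoblast library. Its read counts there were 2587, 2383, 2467 and 2100, against 2646 in hepatoblasts replicate 1. Library totals were 20043218 to 23791477 and 21523329, so the order against that library rests on the scaling. The drop of Alas2 in culture had a log2 fold change of -4.59, and of -3.60 without hepatoblasts replicate 1, whose erythroid sum was 2785 CPM. Apex2 lies across Alas2 on the other strand, with 169 to 487 counts per library. The part of erythroid cells in the values of heme synthesis genes in hepatoblasts was not tested.

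Of 12 heme breakdown and transport genes, 2 were higher and 3 lower in Diff. hepatocytes against hepatoblasts, beside 14.9% and 14.0% of all genes. In mature hepatocytes 7 were higher and 3 lower than in hepatoblasts, beside 20.1% and 24.7%. Relative to mature hepatocytes, the cultured cells had 2 higher and 5 lower, beside 20.2% and 15.6%. With library totals these counts were 1 and 4, 2 and 3, and 2 and 2. Hmox1, the inducible heme oxygenase, fell from 121 ± 22.7 CPM to 32.7 ± 9.89 CPM in culture and to 13.9 ± 3.94 CPM in mature hepatocytes (log2 fold change -3.12, edgeR adjusted p = 6.05e-08). Hmox2, the constitutive form, rose from 23.5 to 53.0 CPM in Diff. hepatocytes and measured 38.2 CPM in mature hepatocytes. Blvrb, a biliverdin reductase, was lower in Diff. hepatocytes (14.6 CPM) than in adult cells (137 CPM), with a log2 fold change of -3.23. The transporter gene Flvcr2 was lower than in hepatoblasts both in culture (log2 fold change -2.54) and in mature hepatocytes (-2.89). Lrp1 and Cd163, which encode receptors for scavenger complexes, were also higher in mature hepatocytes than in hepatoblasts under TMM scaling. Library totals moved the median of all genes by -0.85 in that comparison. Lrp1, which takes up hemopexin with heme and was named after its value was seen, went from 591 to 1931 CPM (log2 fold change 1.71). Cd163, the macrophage receptor for haptoglobin with hemoglobin, went from 0.219 to 10.3 CPM (log2 fold change 5.53), beside a macrophage marker sum of 121 to 239 CPM.

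**Figure D5:**
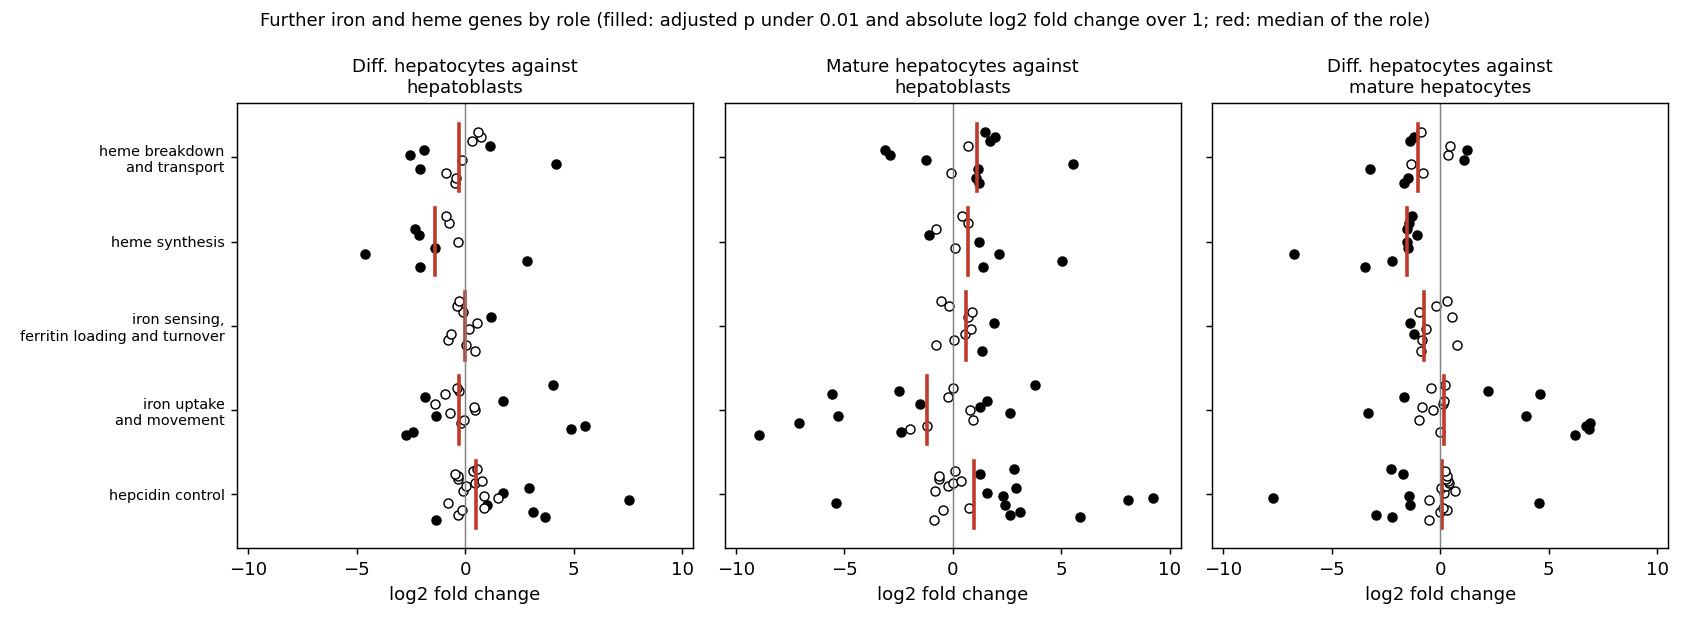
The log2 fold change of 70 further iron and heme genes is plotted by role for 3 comparisons, with filled points for called genes and a red bar at the median of the role. All 9 heme synthesis genes lie left of 0 in the comparison of Diff. with mature hepatocytes, and values far from 0 include genes near 0 counts in a group.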

How the data were processed

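Poly(A) RNA of 12 libraries was sequenced as single reads of 75 bases. The deposited file held whole-number counts per gene, which the authors made by aligning reads to the mouse genome (GRCm38) with STAR 2.5.2b, after quality control with FastQC 0.11.2 and Picard 2.10.2; DESeq2 1.22.2 is named for their own test. The strand setting of the counting was not given in the sources used here, and only reads with 1 position could be counted. Library totals lay between 19581551 and 25216977 counts.

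Genes were kept if any library held more than 10 counts, the filter and call thresholds of the study's methods. Counts were scaled by TMM and fitted with edgeR 4.0.16 in R 4.3.3 (quasi-likelihood test, all 12 libraries, group as the term, Benjamini-Hochberg adjustment over 17779 genes). CPM values use the TMM scaling, and SE is the log2 fold change over the root of the F statistic. Single genes were also compared by an exact two-sided permutation test of mean log2 CPM (prior count 2; 70 assignments, smallest p 0.0286). The script was tested on simulated data. The edgeR p-values rest on a spread estimated for each gene over all 12 libraries, so the third group enters each comparison. Tfrc in Diff. against mature hepatocytes had SE 0.35, with SDs of 10.4 CPM in both groups and 136 CPM in hepatoblasts. The permutation p-values use only the 8 libraries compared.

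The 10 genes, the lists of further iron and heme genes and of markers, and the tests were chosen with earlier results of these data known. Named further genes were, in each comparison and role, the called gene with the largest change in each direction at a mean of at least 5 CPM; Hfe, Hfe2, Tmprss6, Id1, Atoh8, Smad7, Smad6, Slc39a14, Ireb2, Alad, Fech and Lrp1, the count ratios and the sequence motifs were added after values were seen. Of the genes this rule and the likeness measure select, 2 are not reported here. Marker lists printed are erythroid, macrophage, mesenchymal, proliferation and hepatocyte. The sum of 8 endothelial markers was 32.7 to 127 CPM in hepatoblasts, with 4.80 to 10.1 CPM for Diff. hepatocytes and 122 to 220.3 CPM for mature hepatocytes, and that of 6 hepatoblast and bile duct markers was 30052 to 50697, 16102 to 20561 and 50.2 to 92.2 CPM.

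Sequences came from GENCODE M21 transcripts and RefSeq promoter windows. Shared stretches were sought among annotated transcripts alone. Alternatives were DESeq2 1.42.0, glmTreat, other scalings, filters and thresholds, the replicate block, fits of 8 libraries and leaving out each library.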

Additional observations from a re-analysis of the deposited data

Results flagged for a closer look

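In 18 of 96 groups of 4 libraries tested, the highest or lowest library lay far from the other 3 by Dixon's test. Chance flags about 1 in 20 groups, which would be 4.8 here. Of the 10 iron genes, these were Tfrc in hepatoblasts replicate 1 (395 CPM), Fth1 in hepatoblasts replicate 1 (724 CPM), Ftl1 in mature hepatocytes replicate 4 (710.3 CPM) and Hpx in Diff. hepatocytes replicate 3 (9555 CPM). The Fth1 to Ftl1 count ratio of hepatoblasts replicate 1 (2.88) was also far from the other hepatoblast libraries.

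Hepatoblasts replicate 1 was the library that stood apart for further genes of heme and iron handling too, with Alas2 at 85.3 CPM, Blvrb at 127 CPM, Ltf at 33.2 CPM and Scara5 at 2.16 CPM. Its erythroid marker sum was 2785 CPM and its macrophage marker sum 309 CPM. The part of these cells in the values of the library was not tested.

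In Diff. hepatocytes replicate 1, Hmox1 at 47.4 CPM, Scara5 at 3.76 CPM and the proliferation marker sum at 201 CPM lay above the other cultured libraries. Alas1 in hepatoblasts replicate 4 was at 35.3 CPM. In mature hepatocytes, Lcn2 (19.0 CPM) and Steap4 (219.9 CPM) were far above the rest in replicate 2, and Hamp2 (19.9 CPM) in replicate 3.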

How the results depend on the processing

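Of the log2 fold changes of the 10 genes under alternatives, 468 kept their direction and side of the thresholds, 18 gained a call, 13 lost one and 11 changed sign. With adjusted p under 0.05 and no fold threshold, 8 of the 10 genes passed in Diff. against mature hepatocytes and 50 further genes in Diff. hepatocytes against hepatoblasts. The share of all genes passing this threshold is not given here, so these counts do not set the iron genes apart. With glmTreat, which tests against the fold threshold, Trf in Diff. hepatocytes against hepatoblasts (adjusted p = 0.626), Ftl1 in mature hepatocytes against hepatoblasts (0.0221) and Cp in Diff. against mature hepatocytes (0.0327) were no longer called, 23 further genes passed in Diff. against mature hepatocytes, and over all genes 2966 in place of 5145 in Diff. hepatocytes against hepatoblasts and 4221 in place of 6362 in Diff. against mature hepatocytes. Library totals turned Trf (-0.11) and Slc40a1 (-0.05) in mature hepatocytes against hepatoblasts and Fth1 (0.52) in Diff. against mature hepatocytes. That Fth1 difference, near 0, also turned with no filter (0.01), with at least 10 counts in every library (0.10) and in a fit of the 8 libraries compared (0.01), and leaving out single libraries gave -0.07 to 0.07. Slc40a1 in Diff. hepatocytes against hepatoblasts ranged from -0.20 to 0.05 without single libraries and was -0.40 with library totals. The cause of these turns was not tested. Tfrc in Diff. hepatocytes against hepatoblasts was called with DESeq2 (-1.17, adjusted p = 0.00199), with no filter (-1.20) and with library totals (-1.54). The Trf call in that comparison was also lost with no filter (0.99), at least 10 counts in every library (1.00) and library totals (0.71).

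With the replicate block, 7, 8 and 4 of the 10 genes and 27, 38 and 35 further genes were called, and no call of the 10 genes changed. The shares of all genes called in that fit are not given here. The main fit did not pair the libraries, since replicate numbers are not stated to mark shared isolations. Deviations of same-numbered libraries of Diff. hepatocytes and hepatoblasts correlated at 0.32, -0.06, 0.25 and 0.18 in replicates 1 to 4. In the other comparisons they correlated at -0.08 to 0.09. A library correlated best with its own number in 5, 4 and 1 of 8 cases in the 3 comparisons. Whether Diff. hepatocytes and hepatoblasts shared isolations was not tested.

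Limits are the unknown strand setting, reads shared by Ftl1 and Trf with other annotated genes, and copies outside the annotation, which were not analysed here. RNA does not show protein, secretion or iron content.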
